A study of Mus musculus with 45 samples.

Results

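Embryoid bodies (EBs) in serum and adherent cells in serum-free N2B27 medium, both grown from the same male embryonic stem cells (ESCs), were compared at days 5 and 7 of differentiation. The libraries chosen were the 4 EB libraries of days 5 and 7 and the 4 N2B27 libraries of the same days, which the labels call neural, or 8 of the 45 libraries of the series. All were made from wild type E14tg2a ESCs of the 129/Ola background. Before differentiation the cells were kept either in 2iL, which is N2B27 with the inhibitors CHIR99021 and PD0325901 and the cytokine LIF, or in SL, which is serum with LIF. EBs formed in suspension on low-attachment dishes in serum medium without LIF, and N2B27 cells lay on gelatin-coated dishes without serum. Serum, suspension growth and basal medium changed together between the cultures, so their effects cannot be told apart. There was 1 library for each medium, culture and day. The 4 pairs formed by medium and day therefore served as replicates, and the spread behind each p-value is that between media and days rather than between repeated cultures of 1 condition. The 3 further libraries of days 5 and 7, from N2B27 with Fgf2 and ActivinA (FA), are given beside some results.

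Serum EBs are a standard route to the germ layers of the gastrulating embryo. Cells resembling the epiblast pass through a stage like the primitive streak, where Wnt, Nodal and BMP signals switch on T, Eomes and Mixl1, and go on to mesoderm and endoderm. N2B27 lacks serum and added inducers of mesoderm, and ESCs plated in it are known to turn to the neural fate and to express Sox1 and Pax6. Cells that make sterols and unsaturated fatty acids do so under the transcription factors Srebf1 and Srebf2, which are held inactive when cholesterol is taken up from outside.

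Total counts per library ran from 18376177 to 39804240 in EB and from 13577463 to 17938233 in N2B27. In N2B27, 3 counts correspond to 0.172 to 0.227 CPM, the count scaled to the library total after TMM normalization, which sets the lowest level that can be told from none. Mitochondrial genes took 1.39% ± 0.26 of the counts in EB and 1.23% ± 0.13 in N2B27 (SD, n = 4; exact sign-flip permutation test, two-sided, p = 0.625). The 10 most counted genes took 13.4% in EB and 19.99% in N2B27, a difference of -6.64 points whose p of 0.125 is the smallest that 4 pairs allow. The first principal component, with 59.0% of the variance, placed the 4 EB libraries between 18.8 and 88.8 and the 4 N2B27 libraries between -67.7 and -48.1. The SL day 7 EB library lay closest to N2B27, and the 2iL day 7 EB library stood apart on the second component, which held 14.4% of the variance.

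Of 14400 genes tested among 35372, 3336 (23.2%) passed an adjusted p of 0.05. They were 1436 genes higher in EB (9.97%) and 1900 lower (13.2%), around a median log2 fold change of 0.00 over all genes tested. The counts of called genes in the lists below stand beside these shares. Fold changes are those of EB over N2B27 throughout, with their standard errors, and adjusted p-values come from edgeR's quasi-likelihood test with the pair as a block. The count rested on the libraries used. It was 1635 without the 2iL day 5 pair, 1071 without the 2iL day 7 pair, 383 without the SL day 5 pair and 2911 without the SL day 7 pair, and 343 of the 3336 genes passed in all 4 of these fits. Values of 4 libraries are given below in CPM and in the order 2iL day 5, 2iL day 7, SL day 5 and SL day 7. Fewer cells of a type and less RNA per cell cannot be told apart in these bulk libraries.

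**Figure D1:**
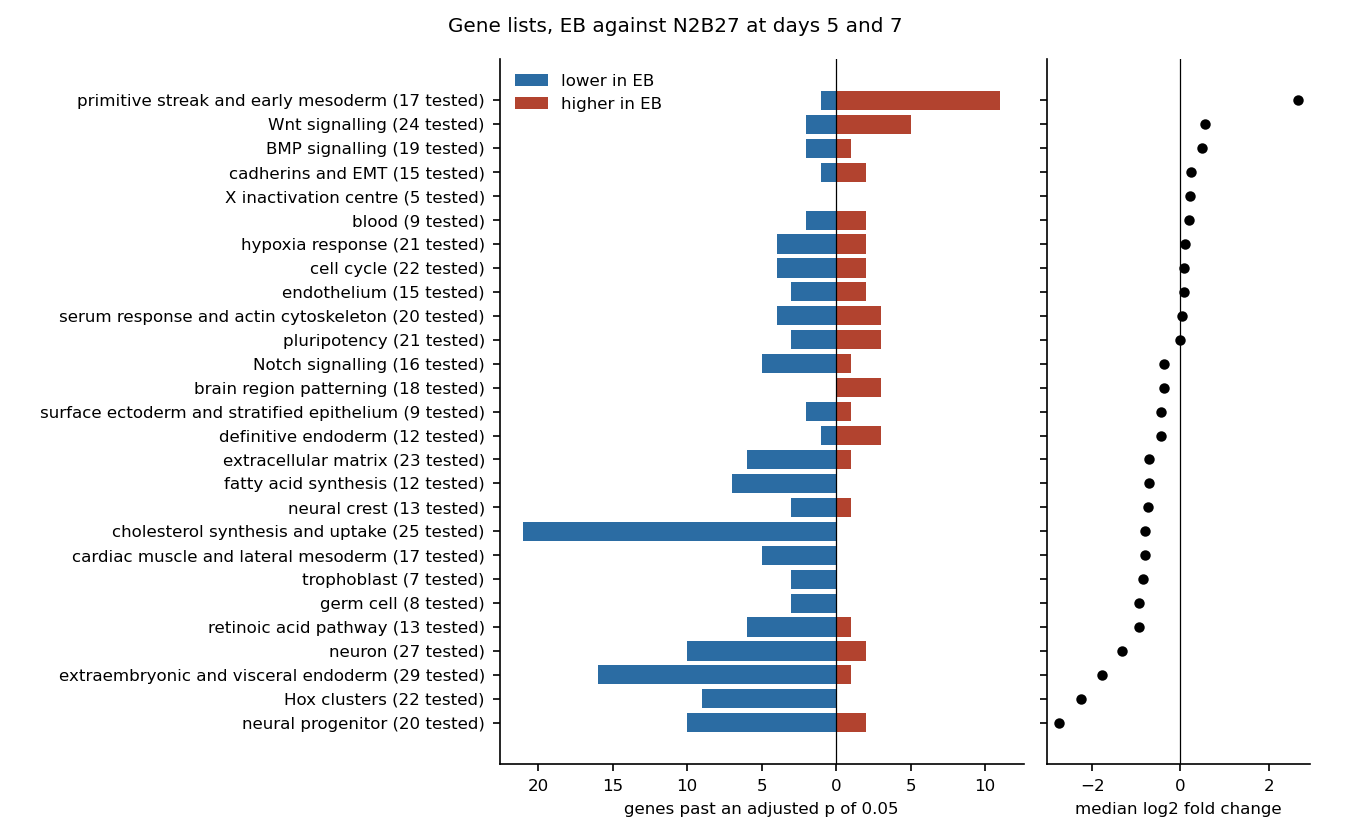
Bars show, for 27 gene lists, the number of tested genes higher in EB (red, to the right) or lower in EB (blue, to the left) at an adjusted p of 0.05, and dots show the median log2 fold change of the tested members, EB over N2B27. The primitive streak list has the most genes higher in EB (11), the cholesterol list the most lower (21), and the neural progenitor list the lowest median (-2.75).

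Genes of the primitive streak and of early mesoderm were higher in EB. Of the 22 genes of this list 17 were tested, 11 were higher and 1, Pdgfra, was lower. The median log2 fold change of the tested members was 2.66, and 10 of them had no overlap between cultures with EB higher, against 14.6% of all genes tested. T, the transcription factor Brachyury that marks the streak and the notochord (ENSMUSG00000062327, chr17:8434423-8442496), was at 353, 71.3, 42.5 and 55.0 CPM in EB and at 0.294, 0.806, 0.402 and 0.681 CPM in N2B27. Every EB library lay above every N2B27 library, and the log2 fold change was 7.47 ± 0.65 (adjusted p = 0.00536). The 2iL day 5 library was the highest, and leaving out 1 pair moved the value between 6.48 and 7.96.

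Mixl1, a homeobox factor of the streak, was at 75.4, 7.45, 22.7 and 16.6 CPM in EB and at 0, 0.0620, 0.230 and 0.454 CPM in N2B27 (7.14 ± 0.80, adjusted p = 0.0081). Its N2B27 levels from 2iL lay below the floor of 3 counts, so the size of its fold change is uncertain. Eomes, the T-box factor needed for the first mesoderm and definitive endoderm, was at 253, 53.3, 87.2 and 67.9 CPM in EB and between 3.35 and 6.73 CPM in N2B27 (4.12 ± 0.55, adjusted p = 0.0105). Both had their highest level in the 2iL day 5 EB library, and neither had overlapping cultures. Mesp1, the early factor of heart-forming mesoderm, was at 7.12, 8.49, 2.89 and 1.94 CPM in EB and had no count in any N2B27 library, which makes it at least 26.9-fold higher in EB with 3 counts per N2B27 library as the floor. Fgf8, a growth factor made by streak cells, was between 8.94 and 37.9 CPM in EB and between 0.248 and 0.920 CPM in N2B27 (5.05 ± 0.62, adjusted p = 0.00955). Gsc, a factor of the anterior streak, and Evx1, of the posterior streak, were higher as well, with log2 fold changes of 4.79 ± 0.69 (adjusted p = 0.0121) and 4.73 ± 0.71 (adjusted p = 0.0131). Tbx6 of paraxial mesoderm (2.66 ± 0.42, adjusted p = 0.0145) and Lhx1 (3.21 ± 0.50, adjusted p = 0.0136) were also higher without overlap. The 2 further members higher in EB were Wnt3, described with the Wnt genes, and Nkx1-2, of the posterior epiblast, whose cultures overlapped (2.21 ± 0.43, adjusted p = 0.0225).

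Some other members of the list did not pass the test. Cdx2, which patterns the tail end, was at 5.01, 30.8, 2.22 and 10.5 CPM in EB and 1.59, 7.38, 4.54 and 6.81 CPM in N2B27 (adjusted p = 0.273). Foxc1, of paraxial mesoderm, was at 2.44, 11.6, 1.08 and 9.17 and 8.28, 4.96, 6.44 and 4.39 CPM (adjusted p = 0.696). Msgn1 did not pass the filter on low counts and was at or below 1.03 CPM in EB and at 0 in N2B27. Pdgfra, a receptor of paraxial mesoderm that primitive endoderm also expresses, ran the other way, at 23.7, 87.4, 38.1 and 79.1 CPM in EB and 96.9, 276, 262 and 355 CPM in N2B27 (-2.16 ± 0.19, adjusted p = 0.00552). The number of list members higher in EB was 9 without the 2iL day 5 pair, 9 without the 2iL day 7 pair, 3 without the SL day 5 pair and 10 without the SL day 7 pair. T, Mixl1, Fgf8 and Pdgfra passed in all 4 of these fits.

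The promoters of a pair of these genes are shown because Lef1 and Tcf7, which bind CTTTGA, were also higher in EB. The stretches come from RefSeq windows on GRCm38.p6 that span 250 bases before to 50 bases after the transcription start, and the capitals mark matches to CTTTGA on either strand. For T the match begins 234 bases before the start, and for Mesp1 the matches begin 72 and 31 bases before it.
T, chr17:8434173-8434272, plus strand: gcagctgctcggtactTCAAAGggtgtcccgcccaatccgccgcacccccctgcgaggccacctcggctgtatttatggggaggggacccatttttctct
Mesp1, chr7:79793591-79793690, minus strand: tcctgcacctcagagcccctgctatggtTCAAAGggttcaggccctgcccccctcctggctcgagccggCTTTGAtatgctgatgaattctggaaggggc
Windows were found for 16 of the 22 streak genes, and 3 of the 16 windows (18.8%) held the motif, against 16.0% of all 32851 windows. The third gene was Msgn1. The share was close to that of all promoters, and a match is a description of the letters rather than a bound site.

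Of 25 listed Wnt pathway genes 24 were tested, 5 were higher and 2 lower, with a median of 0.56, and 7 of 24 called stands beside 23.2% of all genes tested. The median log2 ratio was 0.12 and -0.38 in the day 5 pairs from 2iL and SL and 0.90 and 1.15 in the day 7 pairs, and in the SL day 5 pair 8 genes were over 2-fold higher in N2B27 and 6 in EB. Rspo3, a secreted enhancer of Wnt signals, was at 16.8, 33.7, 4.29 and 18.6 CPM in EB and at or below 0.868 CPM in all N2B27 libraries (5.01 ± 0.57, adjusted p = 0.00845). The nuclear factors Lef1 (2.34 ± 0.29, adjusted p = 0.00962) and Tcf7 (2.01 ± 0.33, adjusted p = 0.0156), the ligand Wnt3 (2.02 ± 0.40, adjusted p = 0.0233) and the Wnt target Sp5 (3.49 ± 0.55, adjusted p = 0.0143) were also higher, without overlap. Sfrp2, a secreted Wnt antagonist found in neural tissue, was at 18.5, 13.6, 27.1 and 26.0 CPM in EB against 145, 111, 114 and 61.6 CPM in N2B27 (-2.34 ± 0.33, adjusted p = 0.0118). Axin2, a feedback target of the pathway, was at 64.6, 64.3, 25.2 and 76.4 CPM in EB and 36.0, 18.0, 30.6 and 15.6 CPM in N2B27 (adjusted p = 0.104). Without the 2iL day 7 pair 2 Wnt genes were higher and without the SL day 5 pair 3, and Rspo3 and Lef1 passed without any 1 pair.

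**Figure D2:**
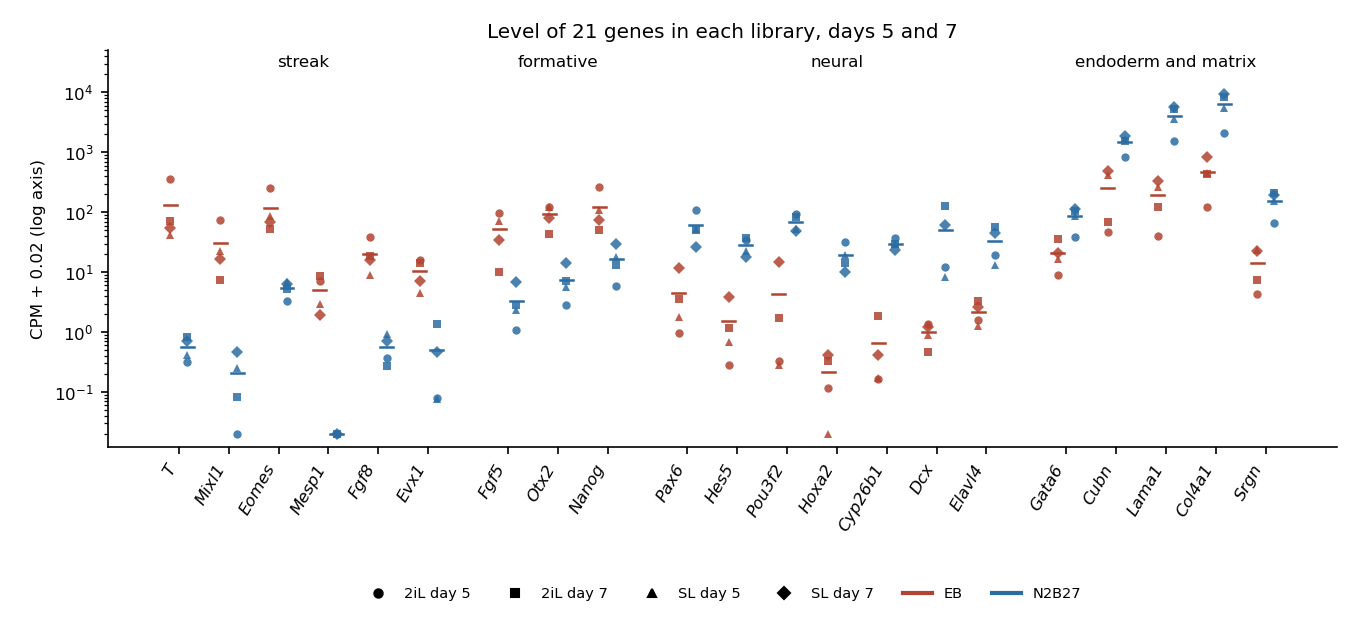
Each point is the level of 1 gene in 1 library, in CPM plus 0.02 on a log axis, for EB (red) and N2B27 (blue), with the marker giving starting medium and day and the bar the mean of the 4 libraries. The streak genes shown and Fgf5, Otx2 and Nanog lie higher in EB (T at 42.5 to 353 CPM against 0.294 to 0.806), while neural and basement membrane genes lie higher in N2B27 (Hoxa2 at 9.99 to 31.9 CPM against 0 to 0.388).

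Neural progenitor genes were lower in EB. Of 22 listed genes 20 were tested, 10 were lower and 2 higher, the median log2 fold change was -2.75, and 11 had all EB libraries below all N2B27 libraries, against 14.6% of all genes tested. The median log2 ratio was -5.63 and -2.83 in the pairs from 2iL at days 5 and 7 and -4.27 and -0.78 in those from SL. In the SL day 7 pair 10 genes were over 2-fold higher in N2B27 and 4 in EB. Pax6, a factor of neuroepithelium (ENSMUSG00000027168, chr2:105668900-105697364), was at 0.934, 3.58, 1.76 and 11.9 CPM in EB and 109.97, 51.1, 53.2 and 26.4 CPM in N2B27 (-4.16 ± 1.005, adjusted p = 0.0366). Hes5, a Notch target of dividing progenitors, was at 0.264, 1.17, 0.672 and 3.88 CPM in EB and 34.9, 37.7, 22.3 and 17.8 CPM in N2B27 (-4.72 ± 0.82, adjusted p = 0.0176). In both genes the SL day 7 EB library was the highest of its culture and still lay below the lowest N2B27 library.

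The POU factors Pou3f2 (-5.55 ± 1.25, adjusted p = 0.0315) and Pou3f3 (-5.65 ± 1.07, adjusted p = 0.021), the proneural factors Neurog1 (-5.59 ± 1.19, adjusted p = 0.0274) and Neurog2 (-5.53 ± 0.93, adjusted p = 0.016), and Dbx1 of interneuron progenitors (-6.00 ± 1.13, adjusted p = 0.0208) were lower too. Sox1, the earliest marker of neuroectoderm, was at 1.13, 13.8, 5.99 and 44.5 CPM in EB and 105, 42.8, 69.9 and 27.3 CPM in N2B27, and the cultures overlapped (adjusted p = 0.184). Its SL day 7 EB library exceeded the N2B27 libraries of day 7. Zic1, of dorsal neural tissue, had the same form, at 0.192, 2.78, 0.620 and 33.1 CPM in EB and 9.39, 2.91, 15.2 and 5.83 CPM in N2B27 (adjusted p = 0.471). Sox2, which both epiblast and neural progenitors express, was at 70.1, 40.2, 97.3 and 94.6 and 154, 89.7, 107 and 80.7 CPM (adjusted p = 0.183). The 2 members higher in EB were Zic2 (1.93 ± 0.18, adjusted p = 0.00582) and Zic5 (2.27 ± 0.30, adjusted p = 0.0104), which are also expressed in the epiblast. Without the SL day 5 pair no member was lower, without the 2iL day 7 pair 1 was, without the 2iL day 5 pair 6 and without the SL day 7 pair 11, and Zic2 passed in all 4 fits.

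A stretch of the Neurog1 promoter is shown because 2 of 19 windows of this list (10.5%), those of Neurog1 and Olig2, held AACAATG, a motif of Sox factors, against 3.78% of all windows. The match, in capitals, begins 44 bases before the start of Neurog1 and lies on the other strand.
Neurog1, chr13:56252181-56252280, minus strand: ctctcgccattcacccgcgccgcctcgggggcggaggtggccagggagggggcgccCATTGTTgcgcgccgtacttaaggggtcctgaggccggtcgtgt

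The neural genes of the N2B27 libraries included those of the hindbrain. Of the 39 Hox genes, which set position along the trunk and hindbrain, 22 were tested, 9 were lower and none was higher by edgeR (none at an adjusted p of 0.05 by DESeq2 either), with a median of -2.26. Hoxa2 was at 0.0958, 0.312, 0 and 0.388 CPM in EB and 31.9, 14.4, 19.5 and 9.99 CPM in N2B27 (-6.49 ± 0.79, adjusted p = 0.00941), and Hoxa3 (-4.99 ± 0.58, adjusted p = 0.00879) and Hoxb4 (-4.09 ± 0.97, adjusted p = 0.0352) were also lower. The lower genes lay in Hoxa (4), Hoxb (3) and Hoxc (2), and none of the 6 tested Hoxd genes was called.

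In the 2iL day 7 EB library the clusters were higher than in the other EB libraries. The summed Hoxb level was 1.96, 28.0, 1.55 and 5.24 CPM in EB and 61.2, 43.3, 50.2 and 32.4 CPM in N2B27. The summed Hoxd level was 1.68, 45.6, 1.19 and 4.56 CPM in EB and 8.51, 7.004, 6.09 and 7.72 CPM in N2B27. Hoxd1 alone was at 20.5 CPM in that EB library. The count of lower Hox genes was 4 without the 2iL day 5 pair, 9 without the 2iL day 7 pair, 2 without the SL day 5 pair and 4 without the SL day 7 pair, with Hoxa2 and Hoxa3 past the threshold in each.

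Genes that handle retinoic acid, the signal that induces hindbrain Hox genes in the embryo, were split. Of 15 listed, 13 were tested, 6 were lower in EB and 1, the receptor Rarg, was higher (1.58 ± 0.38, adjusted p = 0.0366). Cyp26b1, which degrades retinoic acid, was at 0.144, 1.84, 0.155 and 0.388 CPM in EB and 36.5, 29.7, 29.6 and 23.2 CPM in N2B27 (-5.97 ± 0.73, adjusted p = 0.00944). The related Cyp26a1 was at 33.5, 71.8, 46.2 and 68.8 CPM and 24.5, 50.1, 51.2 and 38.4 CPM (adjusted p = 0.127). The receptor Rarb, itself a retinoic acid target (-3.60 ± 0.75, adjusted p = 0.0262), the uptake receptor Stra6 (-3.14 ± 0.61, adjusted p = 0.0222) and the carrier Crabp2 (-2.73 ± 0.66, adjusted p = 0.0363) were lower in EB. Crabp1, the other carrier, was at 1.198, 35.7, 2.27 and 18.6 CPM in EB and 935, 257, 551 and 151 CPM in N2B27 without overlap, and its adjusted p was 0.0528. Without the 2iL day 7 pair 3 of these genes were lower and without the SL day 5 pair 1, and Cyp26b1 passed without any 1 pair.

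The brain region list ran in opposite directions in the day 5 and SL day 7 pairs. Of its 27 genes 18 were tested, none was lower in EB by edgeR (1 by DESeq2) and 3 were higher, with a median of -0.38. These calls stand beside 23.2% of all genes tested. The 3 were Otx2, which epiblast and anterior neural tissue share, Otx1 (2.80 ± 0.76, adjusted p = 0.0482) and En1 of the midbrain (2.28 ± 0.52, adjusted p = 0.0322). At day 5, 11 of the 18 were over 2-fold higher in N2B27 from 2iL and 10 from SL, against 4 and 2 in EB, with median log2 ratios of -1.71 and -1.30. At day 7, 4 from 2iL were over 2-fold higher in each culture (median 0.11), while from SL 14 were so in EB and none in N2B27 (median 1.68). Pax5, a factor of the midbrain and hindbrain border, was at 0.0958, 3.82, 0.568 and 30.5 CPM in EB and 1.17, 4.34, 1.78 and 4.54 CPM in N2B27, and it did not pass the test (adjusted p = 0.802). Without the SL day 5 pair none of the 3 higher genes passed.

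Several neuronal genes were lower in EB. Of 28 listed genes 27 were tested, 10 were lower, 2 were higher and the median was -1.33. Tubb3, the tubulin of young neurons, was at 7.74, 4.91, 14.7 and 21.8 CPM in EB and 58.4, 215, 38.1 and 124 CPM in N2B27 (-2.99 ± 0.68, adjusted p = 0.0323). Dcx, of migrating neurons, was at 1.37, 0.442, 0.878 and 1.21 CPM in EB and 12.3, 125, 8.34 and 60.6 CPM in N2B27 (-4.998 ± 0.96, adjusted p = 0.0215). Neither overlapped, and both N2B27 day 7 libraries were above both day 5 ones. Elavl4, an RNA-binding protein of neurons (-3.82 ± 0.19, adjusted p = 0.00251), and the factors Neurod4 (-6.67 ± 0.88, adjusted p = 0.0104), Nhlh2 (-7.01 ± 0.68, adjusted p = 0.00649) and Insm1 (-3.51 ± 0.38, adjusted p = 0.00801) were lower as well.

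The median log2 ratio of the 27 neuronal genes was -0.56 and 0.19 in the day 5 pairs of 2iL and SL, and -3.46 and -2.14 in the day 7 pairs. Tests of the day 7 minus day 5 difference in fold change gave no gene in edgeR (0% of 14400, with 2148 at an unadjusted p under 0.05) and 677 in DESeq2 (4.7%), of which 356 were above 0 (2.47%) and 321 below (2.23%). In DESeq2, 11 of the 27 neuronal genes were below 0 and none above. The neurofilament gene Nefm was at 18.2, 2.91, 4.80 and 3.11 CPM in EB and 17.1, 84.2, 7.82 and 37.3 CPM in N2B27, and its day difference was -3.98 ± 0.51 (adjusted p = 0.0834 in edgeR and 1.80e-10 in DESeq2). Map2 gave -3.03 ± 0.44 (adjusted p = 0.0893 and 3.81e-08). The listed synaptic genes Snap25, Syt1 and Syp did not pass the test between cultures, at or below 1.82, 1.60 and 17.2 CPM in EB and 7.07, 3.72 and 9.30 CPM in N2B27. The day difference was -4.08 ± 0.53 for Snap25 (adjusted p = 0.0834 in edgeR and 0.000622 in DESeq2). For Syp it was -1.78 ± 0.38 (adjusted p = 0.135 in edgeR and 0.0278 in DESeq2), and that of Syt1 passed in neither. Gad1 (2.10 ± 0.52, adjusted p = 0.0381) and Lhx1, which is also a streak gene, were the 2 neuronal members higher in EB. Leaving out the SL day 5 pair left 3 lower neuronal genes, and Elavl4, Nhlh2 and Insm1 passed in each of the 4 fits.

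Some Notch pathway and neural crest genes were also lower in EB, beside 23.2% of all genes tested that were called in either direction. Of 16 tested Notch genes 5 were lower and 1, Notch3, was higher, and the lower ones included the ligands Dll1 (-2.12 ± 0.27, adjusted p = 0.01) and Dll4 (-3.64 ± 0.44, adjusted p = 0.00916) beside Hes5. Of 13 tested neural crest genes 3 were lower, among them Ednrb and Ngfr, and 1, Erbb3, was higher. The median log2 ratio of the crest list was -1.35 and -1.43 in the day 5 pairs from 2iL and SL. It was 0.51 and 0.64 in the day 7 pairs, where 5 genes were over 2-fold higher in EB and 3 in N2B27 in each. Ednrb, a receptor of crest cells that neural progenitors also express, was at 0.479, 4.47, 1.08 and 3.40 CPM in EB and 276, 120.1, 124 and 80.9 CPM in N2B27 (-6.07 ± 0.88, adjusted p = 0.0119). Without the SL day 5 pair no Notch gene was called and 1 crest gene was.

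Outside the lists, genes with the largest changes at a mean of 10 CPM or more included 4 in each direction. Wnt7a, a ligand of the neural tube, was at 0.216, 0.390, 0.207 and 0.0485 CPM in EB and 18.4, 21.1, 9.54 and 12.3 CPM in N2B27 (-6.16 ± 0.36, adjusted p = 0.00288). Myt1 (-5.98 ± 0.32, adjusted p = 0.00253) and St18 (-6.52 ± 1.02, adjusted p = 0.0139), related zinc finger factors of neurons, and Fam181a (-6.72 ± 1.39, adjusted p = 0.0254) were lower in EB as well. Aplnr, the apelin receptor of early mesoderm, was at 34.9, 109.99, 11.0 and 36.5 CPM in EB and 0.763, 0.186, 0.402 and 0.227 CPM in N2B27 (6.55 ± 0.67, adjusted p = 0.00758). Kcnj3, a potassium channel (4.50 ± 0.87, adjusted p = 0.0219), Vrtn (4.07 ± 0.59, adjusted p = 0.0122) and the lipoxygenase gene Alox15 (3.84 ± 0.69, adjusted p = 0.0191) were also higher.

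Fgf5, Otx2 and Nanog were higher in EB, while the pluripotency list held called genes in both directions and differed between pairs. Of the 23 genes of that list 21 were tested, 3 were higher, 3 lower, and the median was -0.02, beside 23.2% of all genes tested that were called. The median log2 ratio was 0.35 and -1.22 in the pairs from 2iL at days 5 and 7 and 0.17 and 0.04 in those from SL. In the 2iL day 7 pair 12 genes were over 2-fold higher in N2B27 and 4 in EB, against 5 and 7 in each day 5 pair. In DESeq2, 6 of the 21 had a day 7 minus day 5 difference below 0 and 0 above. Fgf5, the classical marker of the formative epiblast that follows naive pluripotency, was at 96.999, 10.2, 72.0 and 34.3 CPM in EB and 1.06, 2.79, 2.36 and 6.81 CPM in N2B27 (3.79 ± 0.87, adjusted p = 0.0329). Otx2, from the brain list, was at 121, 43.6, 124 and 81.0 CPM in EB and 2.82, 7.13, 5.63 and 14.23 CPM in N2B27 (3.69 ± 0.57, adjusted p = 0.0138). Nanog, which returns in the posterior epiblast, was at 262, 50.4, 109.97 and 73.4 CPM in EB and 5.93, 13.3, 18.2 and 29.7 CPM in N2B27 (2.69 ± 0.71, adjusted p = 0.0459). None of the 3 overlapped between cultures, and in EB each was lower at day 7 than at day 5 of the same medium.

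Pou5f1, the core factor Oct4, was at 549, 74.9, 417 and 134 CPM in EB and 18.7, 57.0, 55.2 and 102 CPM in N2B27 (adjusted p = 0.144). Within day 5 it was higher in EB in both media, while at day 7 the 2 cultures were closer. Dnmt3b, a methyltransferase of the same state, was at 1530.5, 243, 2097 and 561 CPM in EB and 127, 235, 184 and 301 CPM in N2B27 (adjusted p = 0.101). Sall4 was higher (0.79 ± 0.10, adjusted p = 0.00962). The naive factors Klf4 (-2.46 ± 0.15, adjusted p = 0.00288), Fbxo15 (-1.88 ± 0.39, adjusted p = 0.0252) and Dppa5a (-1.33 ± 0.36, adjusted p = 0.0473) were lower in EB, and Zfp42 and Esrrb were not called (adjusted p = 0.0999 and 0.682). Without the pair as a block 6 members were higher, without the SL day 5 pair none was, and without the 2iL day 7 pair 1 was. Klf4 passed without any 1 pair.

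**Figure D3:**
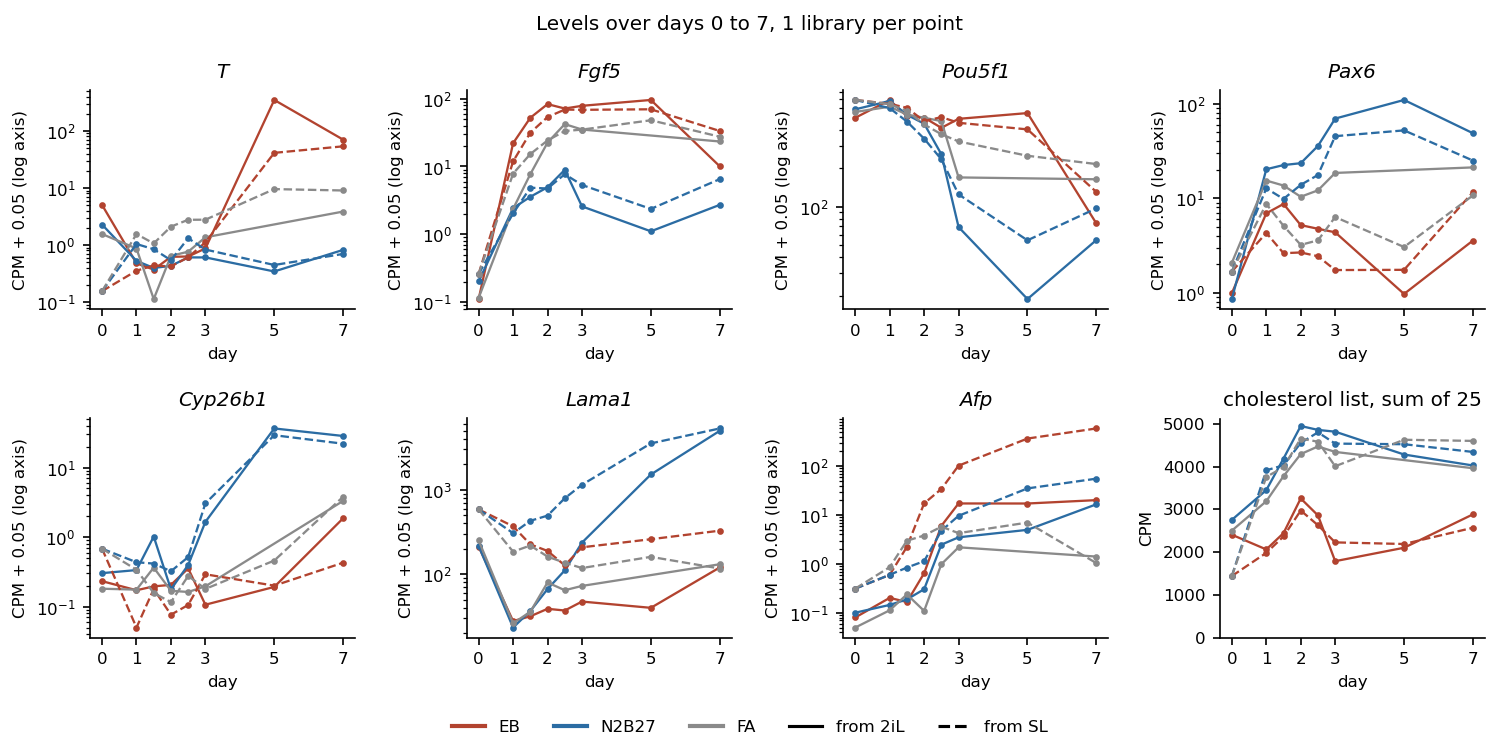
Lines follow 7 genes (CPM plus 0.05, log axis) and the summed CPM of the 25 cholesterol genes (linear axis from 0) over days 0 to 7, for EB (red), N2B27 (blue) and FA (grey), from 2iL (solid) or SL (dashed), with 1 library per point. T departs in EB at day 5 (348 CPM from 2iL, on the scale of all 45 libraries), Fgf5 already at day 1, Cyp26b1 in N2B27 at day 5 (36.4 CPM from 2iL), and the cholesterol sum by day 1.

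The time courses, given on the common scale of all 45 libraries, place these differences. T in EB was at 0.819 (2iL) and 1.06 CPM (SL) at day 3 and at 348 and 41.1 CPM at day 5, and stayed at or below 1.26 CPM in N2B27 after day 0. Fgf5 differed earlier, at 22.005 and 11.8 CPM in EB and 2.38 and 1.98 CPM in N2B27 at day 1. Pax6 was at 20.3 and 12.7 CPM in N2B27 at day 1, against 6.89 and 4.25 CPM in EB. In these single libraries Fgf5 and Pax6 already differed between cultures at day 1, and T was apart from day 5.

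In N2B27, Hoxb1, a hindbrain gene, was at 0.190 and 1.099 CPM at day 1, 5.80 and 6.09 CPM at day 1.5 and 18.98 and 10.6 CPM at day 2. It was at 22.6 and 23.1 CPM at day 3 and back at 1.53 and 3.62 CPM at day 5. Cyp26b1 followed, at 1.60 and 3.004 CPM at day 3 and 36.4 and 29.1 CPM at day 5. Dcx was the last of these, at or below 1.04 CPM up to day 3. Each of these points is 1 library, and the order was not tested.

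Genes of basement membrane and most called genes of extraembryonic endoderm were lower in EB, although the N2B27 libraries carry the neural label. Of 31 genes of primitive, parietal and visceral endoderm 29 were tested, 16 were lower and 1, Afp, was higher. The median was -1.78, and 12 had all EB libraries below all N2B27 libraries, against 14.6% of all genes tested. Lama1, a laminin chain of the embryonic basement membrane (ENSMUSG00000032796, chr17:67697259-67822647), was at 40.6, 122, 268 and 337 CPM in EB and 1518, 5211, 3598 and 5606 CPM in N2B27 (-4.61 ± 0.37, adjusted p = 0.00451). Col4a1, of type IV collagen, was at 124, 430.4, 459 and 834 CPM in EB and 2057, 8319.9, 5475 and 9425 CPM in N2B27 (-3.85 ± 0.19, adjusted p = 0.00251). The lowest N2B27 library of each gene, 2iL at day 5, exceeded the highest EB library.

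Summed over Lama1, Lamb1, Lamc1, Col4a1, Col4a2 and Sparc, the level was 785, 1642, 1860 and 2660 CPM in EB and 7104, 26760.1, 17604 and 29094 CPM in N2B27. In N2B27 these 6 genes held from 0.694% to 2.83% of all counts. Factors of primitive endoderm differed in the same direction, with Gata6 at 9.01, 36.4, 16.3 and 20.8 CPM in EB and 38.8, 106, 85.3 and 113 CPM in N2B27 (-2.12 ± 0.18, adjusted p = 0.00513), Sox7 lower (-2.55 ± 0.35, adjusted p = 0.0108) and Sox17, from the definitive endoderm list, lower (-2.22 ± 0.28, adjusted p = 0.01). Plat (-3.46 ± 0.43, adjusted p = 0.00962), Thbd (-3.29 ± 0.32, adjusted p = 0.00649) and Srgn (-3.64 ± 0.39, adjusted p = 0.00801), which parietal endoderm expresses strongly, were lower as well. P4ha1 and P4ha2, the hydroxylases that mature collagen and stand on the hypoxia list, were also lower in EB (-2.20 ± 0.11, adjusted p = 0.00253, and -2.14 ± 0.22, adjusted p = 0.00776). The part of endoderm cells among the N2B27 cells was not tested.

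**Figure D4:**
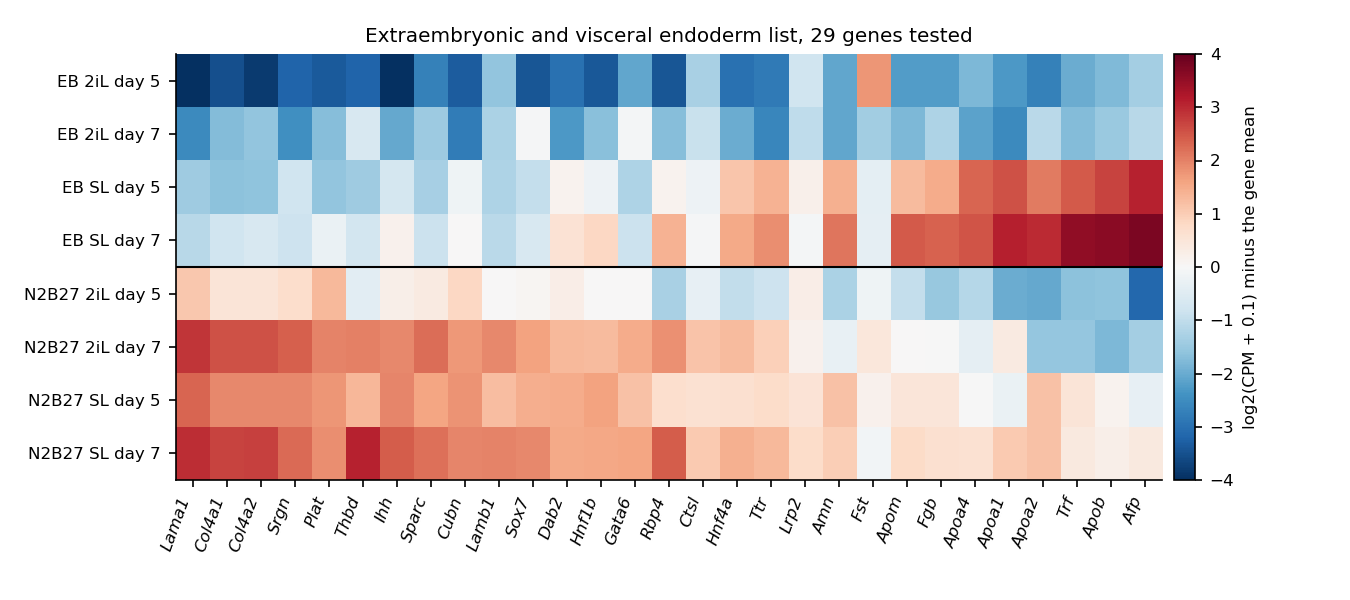
Colours give log2(CPM + 0.1) minus the mean of the gene over the 8 libraries, for the 29 tested genes of the extraembryonic and visceral endoderm list (columns, ordered by fold change) in each library (rows). Basement membrane genes such as Lama1 and Col4a1 are low in all 4 EB libraries, while apolipoprotein genes and Afp are high in the EB libraries from SL.

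Several visceral endoderm genes had their highest EB levels in the libraries from SL. Afp, the fetal serum protein, was at 17.4, 20.5, 378 and 606 CPM in EB and 4.93, 17.3, 35.6 and 58.5 CPM in N2B27 (2.28 ± 0.61, adjusted p = 0.0468). Apob, the apolipoprotein of yolk sac endoderm, was at 36.1, 43.8, 804 and 1494 CPM in EB and 40.0, 35.5, 136 and 146 CPM in N2B27 (adjusted p = 0.157). For Apob, EB from SL lay above all N2B27 libraries, whereas EB from 2iL lay close to the N2B27 libraries from 2iL. Ttr, a carrier of thyroid hormone, was at 4.24, 4.91, 79.7 and 111 CPM in EB and 17.3, 59.6, 51.1 and 75.3 CPM in N2B27 (adjusted p = 0.408). Cubn, the uptake receptor of visceral endoderm, was at 46.7, 67.7, 423 and 480.02 CPM in EB and 835, 1569.5, 1650.1 and 1833 CPM in N2B27 (-3.14 ± 0.58, adjusted p = 0.0197).

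The SL minus 2iL difference in fold change gave no gene in edgeR (0%, with 703 of 14400 at an unadjusted p under 0.05) and 71 in DESeq2 (0.493%), 58 of them above 0 (0.403%). In DESeq2, 13 of the 29 tested endoderm genes were above 0 and none below. For Apob the difference was 2.89 ± 0.35 (adjusted p = 0.673 in edgeR and 1.97e-10 in DESeq2), for Afp 2.40 ± 0.55 (0.931 and 0.00206) and for Ttr 3.42 ± 0.56 (0.885 and 8.21e-07). Cubn already differed between media at day 0, when it was at 262 CPM in SL and 0.759 CPM in the 2iL library of the EB time course. In EB from SL Cubn was highest at day 2, at 1481 CPM. The number of lower endoderm genes was 13 without the 2iL day 5 pair, 12 without the 2iL day 7 pair, 10 without the SL day 5 pair and 16 without the SL day 7 pair, and 9 genes, among them Gata6, Lama1, Col4a1 and Sparc, passed in all 4 fits. Afp lost its call without the 2iL day 5 or SL day 5 or SL day 7 pairs.

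Later mesoderm stood out in 1 library, the EBs from 2iL at day 7. Hand1, a factor of lateral and extraembryonic mesoderm, was at 1.89, 355, 3.87 and 17.8 CPM in EB and 1.76, 4.40, 3.22 and 5.83 CPM in N2B27 (adjusted p = 0.269). Kdr, the VEGF receptor of blood and vessel progenitors, was at 8.22, 137, 10.1 and 29.4 CPM in EB and 8.16, 3.29, 2.24 and 1.82 CPM in N2B27 (adjusted p = 0.0843). Foxf1, of splanchnic mesoderm, was at 0.192, 46.7, 1.03 and 2.91 CPM in EB and 0.998, 1.18, 1.61 and 1.59 CPM in N2B27 (adjusted p = 0.695). None of the 3 passed, and the other EB libraries were much lower than the 2iL day 7 one, which was made from a single sample.

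The mesodermal lists held called genes in both directions, beside 23.2% of all genes tested that were called. Of 17 tested cardiac and lateral mesoderm genes none was higher in EB by edgeR (1 by DESeq2) and 5 were lower, with a median of -0.80, and without the pair as a block none of the 5 was lower. Those 5 were Gata4, which endoderm also expresses (-2.12 ± 0.25, adjusted p = 0.00914), the smooth muscle genes Acta2 (-3.26 ± 0.51, adjusted p = 0.014) and Tagln (-1.05 ± 0.18, adjusted p = 0.017), and Myh7 and Ryr2. Only Gata4 passed without each pair in turn. Of 9 tested blood genes 2 were higher, Lmo2 (3.31 ± 0.54, adjusted p = 0.0153) and Epor, and 2 lower, Runx1 and Kit, and all 4 lost the call in at least 1 of the fits without a pair. Of 15 tested endothelial genes 2 were higher, Etv2 (2.92 ± 0.53, adjusted p = 0.0193) and Flt4, and 3 lower, Cdh5 (-2.62 ± 0.39, adjusted p = 0.0128), Tek and Esam. Hbb-bh1, the embryonic globin, was at or below 3.71 CPM in EB and at or below 2.30 CPM in N2B27 and was not tested. Promoter windows of blood genes held AGATAA in 4 of 22 (18.2%, against 11.2% of all windows) and TGATAA in 7 of 22 (31.8%, against 9.05%), where these are forms of the GATA motif. The 7 genes with TGATAA included the globin genes Hbb-y, Hba-x, Hba-a1 and Hba-a2, and none of the 4 called blood genes. Of those 4 only Epor was among the genes with AGATAA. Without the SL day 5 pair 1 blood gene was higher and no endothelial gene was called.

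Few BMP pathway genes passed the test. Of 19 tested, 1 was higher, the inhibitor Smad7 (0.84 ± 0.22, adjusted p = 0.0426), and 2 were lower, Id4 (-3.11 ± 0.34, adjusted p = 0.00801) and the receptor Bmpr2, with a median of 0.49. These calls stand beside 23.2% of all genes tested. The median log2 ratio was -0.28 and -0.30 in the day 5 pairs from 2iL and SL and 1.39 and 0.67 in the day 7 pairs. Bmp4, the ligand that induces posterior mesoderm, was at 2.30, 54.7, 2.53 and 6.26 CPM in EB and 2.70, 4.15, 1.61 and 4.85 CPM in N2B27 (adjusted p = 0.301). In DESeq2, 9 of the 19 genes had a day 7 minus day 5 difference above 0 and none below. Id4, which neural progenitors express, passed without any 1 pair, while Smad7 lost its call without the 2iL day 5 or 2iL day 7 or SL day 5 pairs.

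Of 12 tested definitive endoderm genes 3 were higher and 1 lower, beside 23.2% of all genes tested that were called in either direction. Cer1, the Nodal and BMP antagonist of anterior endoderm, was at 6.04, 9.09, 5.99 and 11.3 CPM in EB and 0.117, 0, 0 and 0.303 CPM in N2B27 (6.39 ± 0.69, adjusted p = 0.00801) and passed in all 4 fits without a pair. Its N2B27 levels at 2iL day 5, 2iL day 7 and SL day 5 lay below the floor of 3 counts, so the size of its fold change is uncertain. Trh, a hormone gene, was at 316, 115, 142 and 245 CPM in EB and 11.6, 28.2, 18.7 and 38.2 CPM in N2B27 (3.06 ± 0.46, adjusted p = 0.0132). In all, 3 of 7 tested trophoblast genes (Esx1, Plac1 and Krt7) and 3 of 8 tested germ cell genes (Ddx4, Kit and Mael) were lower in EB, and no member of either list was called higher by edgeR. DESeq2 called none higher in trophoblast and 2 in germ cells. Without the pair as a block no trophoblast gene was lower, and without the SL day 5 pair none of either list was.

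Genes of cholesterol synthesis and uptake were lower in EB. All 25 listed genes were tested, 21 were lower, none was higher by edgeR or by DESeq2, and all 25 fold changes were below 0. The median log2 fold change was -0.80, and 22 genes had all EB libraries below all N2B27 libraries, against 14.6% of all genes tested. The median log2 ratio was -0.95 and -0.38 in the pairs from 2iL at days 5 and 7 and -1.03 and -0.65 in those from SL, and 11, 3, 14 and 5 genes were over 2-fold lower in EB. In a fit of day 7 alone 7 genes were lower. Their summed level was 2125, 2929, 2258 and 2637 CPM in EB and 4285, 4210.1, 4599.9 and 4579.6 CPM in N2B27. The 2 cultures did not overlap. Means were 2487 ± 366 CPM in EB and 4419 ± 200.1 CPM in N2B27 (SD, n = 4), so that the spread among the 4 libraries of a culture was well under the gap.

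Insig1, which holds the Srebf proteins in the endoplasmic reticulum and is itself their target, was at 112, 189, 117 and 137 CPM in EB and 369, 705, 595 and 809 CPM in N2B27 (-2.13 ± 0.17, adjusted p = 0.00437). Hmgcs1, an enzyme of the mevalonate pathway (ENSMUSG00000093930, chr13:119690379-119708260), was at 357, 495, 359 and 415 CPM in EB and 861, 587, 725 and 654 CPM in N2B27 (-0.80 ± 0.18, adjusted p = 0.0318). Sqle, which makes squalene epoxide, was also lower (-0.83 ± 0.09, adjusted p = 0.00801). Mvd, Idi1 and Nsdhl were among the 4 genes that did not pass. The number of lower genes was 13 without the 2iL day 5 pair, 16 without the 2iL day 7 pair, 2 without the SL day 5 pair and 15 without the SL day 7 pair. Over all genes tested the calls also fell most without the SL day 5 pair, from 3336 to 383. The median log2 fold change of the cholesterol list stayed between -0.89 and -0.74 in these 4 fits. Insig1 was among the genes that passed in all 4 fits.

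Of the windows of these genes, 1 of 20 (5%) held TCACNCCAC, the sterol regulatory element to which Srebf proteins bind, against 1.24% of all windows, and it is shown because it belongs to Hmgcs1. The match, in capitals, begins 137 bases before the start.
Hmgcs1, chr13:119690181-119690280, plus strand: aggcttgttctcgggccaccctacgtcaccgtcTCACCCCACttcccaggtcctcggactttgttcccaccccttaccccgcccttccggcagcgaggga

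**Figure D5:**
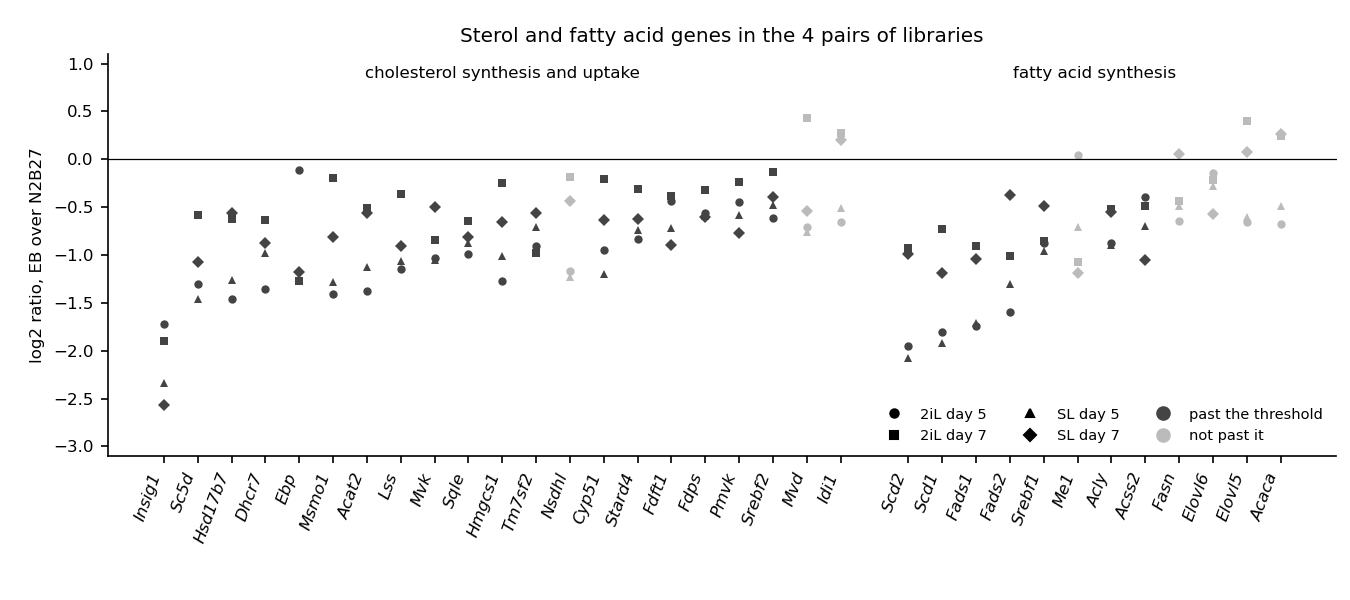
Each point is the log2 ratio, EB over N2B27, of 1 gene in 1 of the 4 pairs of libraries (0.1 CPM added), for 21 of the 25 cholesterol genes and the 12 fatty acid genes, ordered by fold change, with dark points for genes past an adjusted p of 0.05. Every dark point lies below 0, and Insig1 lies lowest among the cholesterol genes at a fitted log2 fold change of -2.13.

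Genes of fatty acid synthesis were lower alongside. All 12 were tested, 7 were lower, none was higher by edgeR or DESeq2, all 12 fold changes were below 0, and the median was -0.72. Scd1, the desaturase that makes oleate, was at 98.5, 216, 116 and 183 CPM in EB and 345, 358, 442 and 416 CPM in N2B27 (-1.41 ± 0.22, adjusted p = 0.014). Scd2 (-1.49 ± 0.25, adjusted p = 0.0157), Fads1 (-1.35 ± 0.18, adjusted p = 0.0102), Fads2 (-1.08 ± 0.21, adjusted p = 0.0215) and the regulator Srebf1 (-0.79 ± 0.11, adjusted p = 0.0105) did not overlap either. Fasn, the synthase, was at 544, 493, 626 and 766 CPM in EB and 849.98, 666, 877 and 738 CPM in N2B27 (adjusted p = 0.0954). Without the SL day 5 pair none of the 7 passed, and without the other pairs 7, 5 and 7 did.

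The summed cholesterol genes differed early, and in FA they were at 3960 (2iL day 7), 4626 (SL day 5) and 4599 CPM (SL day 7). The fatty acid genes followed over time were less even at day 1. From 2iL and SL, Scd1 was at 135 and 109.9 CPM in EB and 306 and 321 CPM in N2B27. Fads1 was at 64.3 and 62.2 CPM in EB and 71.0 and 93.9 CPM in N2B27. At day 1 the summed cholesterol genes stood at 2060.1 and 1980.01 CPM in EB from 2iL and SL and at 3448 and 3912 CPM in N2B27. The serum-grown SL cells were at 1438 CPM at day 0, the lowest of all. The 2iL cells of the 2 time courses, grown without serum, were at 2404 and 2751 CPM. These lay within the range of the EB libraries of days 5 and 7, 2100 to 2881 CPM on the same scale. The part of serum in this difference was not tested. In FA, which is N2B27 with added factors, Hmgcs1 was at 707, 705 and 834 CPM in the libraries 2iL day 7, SL day 5 and SL day 7, above the EB range in each, on the scale of all 45 libraries. Lama1, in contrast, was at 131, 161 and 117 CPM in FA, within the EB range, and T was at 3.80, 9.49 and 8.97 CPM, between the cultures. These FA values are single libraries set beside the comparison and were not tested.

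Counts of called genes in the hypoxia, serum response and matrix lists stand beside 23.2% of all genes tested. Of 21 tested hypoxia genes 2 were higher, the glucose transporter Slc2a1 (0.71 ± 0.12, adjusted p = 0.0153) and Ldha (0.98 ± 0.24, adjusted p = 0.0366), and 4 lower, with a median of 0.11. In the 2iL day 5 pair the hypoxia list had a median log2 ratio of 0.93, with 10 genes over 2-fold higher in EB, and in the other pairs no gene was. Of 20 tested serum response and actin genes 3 were higher, the immediate early genes Junb, Egr1 and Ier2, and 4 lower, Ctgf, Acta2, Tagln and Myl9, with a median of 0.04. Junb was at 19.7, 20.3, 10.8 and 13.3 CPM in EB and 3.70, 8.55, 4.77 and 9.69 CPM in N2B27 (1.31 ± 0.33, adjusted p = 0.0393), and Ctgf, a target of YAP, at 26.1, 22.6, 24.6 and 25.8 CPM in EB and 53.8, 119.9, 43.3 and 134 CPM in N2B27 (-1.66 ± 0.33, adjusted p = 0.0231). None of these 7 passed without each pair in turn. Of 23 tested matrix genes 6 were lower, 5 of them basement membrane chains named above or Lamc1, and 1, Lama5, was higher (1.42 ± 0.28, adjusted p = 0.0223). The median of the matrix list was -0.71, with 16 of 23 fold changes below 0, and the median log2 ratio was -1.40 and -1.60 in the day 5 pairs from 2iL and SL and 0.21 and -0.24 in the day 7 pairs.

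The remaining lists are likewise set beside 23.2% of all genes tested that were called. Of 15 tested cadherin and mesenchymal transition genes 2 were higher, Cdh11 and Cldn4, and 1 lower, the intermediate filament gene Vim (-1.59 ± 0.30, adjusted p = 0.021). In DESeq2, 6 of these 15 genes had a day 7 minus day 5 difference above 0 and 4 below. Of 22 tested cell cycle genes 2 were higher, Bub1 and Mcm2, and 4 lower. The 4 were the inhibitors Cdkn1a (-1.22 ± 0.12, adjusted p = 0.00663), Cdkn1c and Cdkn2a (-3.51 ± 0.52, adjusted p = 0.0125) and the cyclin Ccnd1, and Cdkn1a passed without any 1 pair. Of 9 tested surface ectoderm genes 1 was higher, Grhl2, and 2 lower, Krt8 and Krt15, and without the SL day 5 pair none was called. None of the 5 tested genes of the X inactivation centre was called by edgeR, and DESeq2 called 1.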

How the data were processed

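Strand-specific RNA-seq counts of 8 libraries were compared, with the other 37 used for time courses and FA values. The authors trimmed adaptors with TrimGalore, mapped reads to GRCm38 (mm10) with TopHat2, allowing 1 mismatch and guided by Ensembl 82 gene models, and counted reads per gene and strand with featureCounts. The deposited values are these raw counts, without normalization. Genes were placed and named from a GRCm38 annotation, in which 34599 of the 35372 genes were found, and 435 without a symbol were kept by identifier. Ribosomal depletion kept non-coding RNA in the totals, so CPM of coding genes is relative to these too.

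Here, genes were filtered with filterByExpr, scaled by TMM and tested with edgeR 4.0.16 (glmQLFit and glmQLFTest, R 4.3.3) for culture, with the pair of medium and day as a block, and with Benjamini-Hochberg adjustment over 14400 genes at 0.05. Differences of the fold change between days and between media were interaction terms. The study names DESeq2, which served as an alternative (1.42.0). The standard error is the size of the log2 fold change over the root of the F statistic. CPM is the count over the TMM-scaled library total, with TMM computed over the 8 libraries, and over all 45 for time courses, with the sums they give, and FA values. Ratios of single pairs had 0.1 CPM added. The smallest exact p of 4 pairs is 0.125. Exact tests and summaries used Python 3.11.15 and scipy 1.17.1. The fits were tested on simulated data with known changes.

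Pairs follow the labels, and deviations of same-pair libraries from their group means correlated at 0.165 (2iL day 5), 0.0989 (2iL day 7), 0.193 (SL day 5) and 0.0683 (SL day 7) over 14400 genes. The libraries and the 27 gene lists (530 genes, 441 tested, 19 on more than 1 list) were chosen with earlier results of these data known. Genes named are the key members of each list, up to 4 further members past the threshold with the largest change in the same direction in all 4 pairs, and the 10 highest and 10 lowest of all genes past it with a mean of at least 10 CPM in 1 culture, 177 genes in all, some of which are not reported here. Others were chosen after their values were seen, among them Apob, Zic2, Zic5, Pdgfra, Map2, Nefm, Foxf1, Pax5, Hoxd1 and Srebf2, as were the searches for CTTTGA and TCACNCCAC in promoters. Hox paralogs and gene families can share reads, and counts of near-identical copies are uncertain. Standard errors come from the same fits as the p-values and include the spread between media and days, while floors cover counting error only.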

Additional observations from a re-analysis of the deposited data

Results flagged for a closer look

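In 9 of 301 groups of 4 libraries examined, the highest or lowest library lay farther from the others than Dixon's 95% limit allows for 4 values. Chance alone flags about 1 in 20 such groups. In EB, Axin2 was at 25.2 CPM in the SL day 5 library and between 64.3 and 76.4 CPM in the others, and Lamc1 was at 203 CPM in the 2iL day 5 library and between 287 and 307 CPM in the others. Smad7 was at 68.6 CPM in the 2iL day 7 EB library and between 34.4 and 38.3 CPM in the others. The SL day 7 EB library stood alone for Neurod4, at 1.46 CPM against at most 0.0519 CPM, and for Trp63, at 3.64 CPM against at most 0.0958 CPM. In N2B27, Ddx4 was at 4.15 CPM in the 2iL day 7 library (6.13 to 6.55 CPM in the others), and Pfkfb4 at 6.21 CPM in SL day 7 (7.36 to 7.56 CPM). The 2iL day 5 N2B27 library was apart for Sox17, at 23.0 CPM against 54.7 to 63.4 CPM, and for Twist1, at 8.45 CPM against 5.35 to 5.603 CPM. The causes of these values were not tested.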

How the results depend on the processing

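Of 3336 genes called, 1436 were higher and 1900 lower in EB. Leaving out 1 pair gave 383 to 2911 genes, 87 to 1277 of them higher and 296 to 1634 lower. Against a 2-fold change (glmTreat) 271 passed (47 higher, 224 lower). In alternatives chosen after seeing the data, day 7 alone gave 1512 (420 higher, 1092 lower), 2iL alone 0 (0 higher, 0 lower, with 3736 genes at an unadjusted p under 0.05) and SL alone 22 (5 higher, 17 lower). These fits have fewer libraries. The other alternatives stayed within 1.5 times, and without the replicate block 3649 genes passed (1775 higher, 1874 lower). The day 7 minus day 5 difference gave 0 genes, 677 in DESeq2, 219 without a filter on low counts, 2 without the replicate block and 3 to 287 when a pair was left out. The SL minus 2iL difference gave 0 genes and 71 in DESeq2. The cause was not tested. No called gene among the 177 named changed sign under any alternative. Of 127 named and called, DESeq2 kept all, the fit without the block lost 25, and the fits without 1 pair lost 36 (2iL day 5), 55 (2iL day 7), 95 (SL day 5) and 29 (SL day 7). The difference in the share of the 10 most counted genes was -6.76 points without mitochondrial genes. Depth limits genes under about 0.2 CPM in N2B27, where EB libraries from 2iL were deeper.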

Other observations

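Zic1, Wnt1 and Ptn, chosen after their values were seen, were among the genes whose EB to N2B27 fold change was higher at day 7 than at day 5 in DESeq2. Zic1 had a day 7 minus day 5 difference of 6.36 ± 1.01 on the log2 scale (adjusted p = 0.101 in edgeR and 7.85e-10 in DESeq2). Wnt1, the signal of the dorsal midline, was at 0, 2.49, 0.103 and 9.71 CPM in EB and 1.41, 0.496, 6.15 and 1.67 CPM in N2B27, in the order 2iL day 5, 2iL day 7, SL day 5 and SL day 7, with a day difference of 8.74 ± 0.79 (adjusted p = 0.0642 in edgeR and 7.65e-08 in DESeq2). Its EB levels at day 5 were below 3 counts in both media, so the size of this difference is uncertain. Ptn, a growth factor of neural progenitors, was at 1.37, 10.8, 2.48 and 39.3 CPM in EB and 65.6, 10.4, 45.2 and 10.1 CPM in N2B27 (5.92 ± 0.80, adjusted p = 0.0834 and 6.68e-15). Zic5, another member of the Zic family, went the other way (-1.27 ± 0.23, adjusted p = 0.111 in edgeR and 0.00443 in DESeq2), and Zic2 was at -0.72 ± 0.17 (adjusted p = 0.149 and 0.135). For Zic1, Wnt1 and Ptn EB was the lower culture at day 5, and at day 7 it lay above N2B27 in both media for Wnt1 and Ptn. In DESeq2, 6 of the 22 tested Hox genes and 5 of the 24 tested Wnt genes had a day difference above 0 and none below, and none of these passed in edgeR.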
